A study of Mus musculus with 8 samples.

Results

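The genes described here are 39 mouse genes of the S and M phases of the cell cycle, followed in bone marrow-derived macrophages that were left untreated or stimulated. They are picked out by gene symbol, with no threshold on their values, and all 39 were found among the 36806 gene rows of the FPKM tables. They fall into 8 replication genes (Mcm2, Mcm3, Mcm4, Mcm5, Mcm6, Mcm7, Pcna and Rrm2), 11 other genes of S phase or of the passage from G1 to S, and 20 mitotic genes. Poly(A) RNA was sequenced from 8 cultures of C57BL/6 macrophages on day 7 of differentiation in medium conditioned by L929 cells, a fibroblast line that secretes the growth factor CSF1. 1 culture received no treatment, and 7 were stimulated for 4 h with 100 ng/ml IFNg (interferon gamma), 10 ng/ml IL4 (interleukin 4), 10 ng/ml TNFa (tumour necrosis factor), 1 ng/ml TGFb1 (transforming growth factor beta 1), 10 ng/ml IL1b (interleukin 1 beta), 1 ng/ml MALP2 (a mycoplasmal lipopeptide sensed by Tlr2 and Tlr6) or 100 nM CpG (DNA sensed by Tlr9). The macrophages are a primary culture that divides in response to CSF1, and no sorting step is given for them. Each group held 1 library, so no difference here has a replicate check, no test was run, and the values describe these libraries.

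Cells copy their DNA once per cycle and then separate the copies. In G1 the MCM2 to MCM7 proteins are loaded onto origins as the replicative helicase, and E2F transcription factors, once released from the retinoblastoma protein family, switch on the genes of DNA synthesis. The genes of mitosis follow later, under the DREAM and MYB-MuvB complexes and FOXM1, which act through a promoter element called the cell cycle homology region (CHR), often beside CCAAT boxes bound by NF-Y. Macrophages grown with CSF1 cycle until differentiation or activation slows them, so the RNA of a culture is a mixture of cells in different phases and of cells that have left the cycle. In such bulk RNA, fewer cycling cells and less of a transcript per cell cannot be told apart.

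The promoters of 31 of the 39 genes were found in the RefSeq promoter table of build GRCm38.p6, which gives 250 bases before and 50 bases after each annotated start. Mcm4, Gins2, Ccne2, Ccna2, Cdc25c, Aurkb, Kif20a and Foxm1 had no entry. Both strands were searched for an E2F element (TTTCGCGC, TTTGGCGC or TTTCCCGC), a CHR (TTTGAA or TTTAAA) and a CCAAT box (CCAAT), where TTTAAA reads the same on both strands and E2F words on opposite strands can overlap each other. The 160 bases upstream of the start of 5 of these genes are shown to set the replication type beside the mitotic type, from 5′ to 3′ on the gene's strand, with every searched element in capitals.
Mcm5, chr8:75109349-75109508, plus strand: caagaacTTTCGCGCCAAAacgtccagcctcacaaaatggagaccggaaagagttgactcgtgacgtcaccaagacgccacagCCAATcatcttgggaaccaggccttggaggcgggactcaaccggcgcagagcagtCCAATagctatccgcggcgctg
Mcm6, chr1:128359706-128359865, minus strand: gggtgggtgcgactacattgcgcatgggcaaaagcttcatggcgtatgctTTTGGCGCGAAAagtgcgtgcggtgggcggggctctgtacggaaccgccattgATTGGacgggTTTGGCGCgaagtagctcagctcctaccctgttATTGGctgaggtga
Ccnb1, chr13:100786487-100786646, minus strand: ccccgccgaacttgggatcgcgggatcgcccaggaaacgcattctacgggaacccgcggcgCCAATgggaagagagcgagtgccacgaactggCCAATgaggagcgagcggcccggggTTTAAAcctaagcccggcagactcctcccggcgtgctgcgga
Cdc20, chr4:118437344-118437503, minus strand: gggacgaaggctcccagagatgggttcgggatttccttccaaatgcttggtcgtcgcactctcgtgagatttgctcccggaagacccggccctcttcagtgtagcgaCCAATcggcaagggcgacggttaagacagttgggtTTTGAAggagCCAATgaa
Ube2c, chr2:164769769-164769928, plus strand: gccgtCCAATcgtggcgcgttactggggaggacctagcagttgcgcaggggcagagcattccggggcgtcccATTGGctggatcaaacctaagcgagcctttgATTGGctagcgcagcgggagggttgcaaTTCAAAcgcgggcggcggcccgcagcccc

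In the Mcm5 promoter 2 E2F words on opposite strands begin 153 and 149 bases before the start and share letters. In the Mcm6 promoter a like pair begins at 110 and 106 bases, and a further E2F word at 47 bases. Both also have CCAAT boxes, at 77 and 22 bases in Mcm5 and at 57 and 14 bases in Mcm6. Mcm5 has a CHR as well, at 221 bases, which lies outside the stretch shown. The Ccnb1 promoter has CCAAT boxes at 99 and 67 bases followed by a CHR at 42 bases, the Ube2c promoter has them at 88 and 57 bases followed by a CHR at 29 bases, and the Cdc20 promoter has one at 53 bases before a CHR at 18 bases. Over the whole window of 300 bases, an E2F word was present in 4 of 8 promoters of replication genes (7 genes matched), in 3 of 10 of the other S phase genes (9 matched) and in 1 of 15 of mitotic genes, against 1.84% of all 32851 promoters in the table. A CHR together with a CCAAT box was present in 13 of 15 promoters of mitotic genes in 3 of 8 of replication genes and in 1 of 10 of the other S phase genes, against 10.7% of all promoters. A CCAAT box, with or without a CHR, was present in 8 of 8 promoters of replication genes and 14 of 15 of mitotic genes. It was present in 3 of 10 of the other S phase genes, against 37.4% of all promoters. These are matches of letters, and no binding was measured here.

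The identity of the cultures was checked by markers. The macrophage genes Csf1r (1524 FPKM), Adgre1 (865 FPKM) and Cd68 (2061 FPKM) were high in the untreated library and in every stimulated one. Of the others listed, Itgam, Cd14 and Fcgr1 were at 120 FPKM or more in every library. Mertk was at 24.1 FPKM untreated and 1.22 (MALP2) to 20.6 (TGFb1) after stimulation. Cx3cr1 was at 20.4 FPKM untreated, 2.30 after IL4, 2.95 after IFNg and 42.3 (CpG) to 117 (TGFb1) after the rest. Lyz2 had no usable value in the untreated library. FPKM counts fragments per length of transcript and size of library, so levels of different genes can be compared per length. Read counts are not in the tables. From the spacing of the lowest values, the FPKM of a single read after IFNg was estimated at 2.04 times its untreated value, and after the remaining 6 stimuli at 1.04 to 1.44 times. By this estimate IFNg is the library of least relative depth. It is rough: after IFNg 30.7% of 1234 low genes lay on the ratios scored. Simple multiples were scored together, so a value near 2 is hard to tell from one near 1. Levels below are on the scale of the IL4 table, to which the other tables were joined through their shared untreated library. Ranges in parentheses are the authors' confidence bounds within a library, and whether bounds overlap was judged within each stimulus's own table. Changes are log2 of (stimulated FPKM + 1) over (untreated FPKM + 1), which understates the change of low genes, and a gene is counted when it reached 1 FPKM in either library and changed at least 2-fold on this scale.

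The 3 groups did not differ from untreated in the same way. After TGFb1 all 8 replication genes were higher than untreated, with a median log2 change of 1.15, while all 16 mitotic genes that reached 1 FPKM were lower, with a median of -0.95. IL1b gave the same split, with 8 of 8 replication genes higher (median 0.89) and 15 of 16 mitotic genes lower (median -0.84). In both libraries each of the 8 replication genes stood above the highest mitotic gene, though after IL1b only narrowly (Rrm2 at 0.128 against Mki67 at 0.116). The median over all genes compared was -0.08 after TGFb1 and -0.09 after IL1b.

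After the other 5 stimuli the medians of both groups were below 0, as was that of all genes compared, at -0.12 (CpG) to -0.10 (MALP2 and TNFa). For the replication genes they were -0.98 after IFNg, -0.15 after IL4, -0.44 after TNFa, -0.72 after MALP2 and -0.59 after CpG, and for the mitotic genes -1.26, -1.25, -0.90, -0.55 and -0.92 in the same order. The mitotic median minus the replication median was -2.10 after TGFb1, -1.73 after IL1b and -1.10 after IL4, and -0.46, -0.33 and -0.29 after TNFa, CpG and IFNg. MALP2 was the only one of the 7 in which the mitotic median was the higher, by 0.17, with untreated as the reference. The median of the 11 other S phase genes lay between those of the replication and mitotic genes after IL4, TNFa, TGFb1 and IL1b, and above both after IFNg, MALP2 and CpG, with values of 0.08 after TGFb1 and -0.01 after IL1b, and of -0.83 (IFNg) to -0.51 (MALP2) after the other 5.

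**Figure D1:**
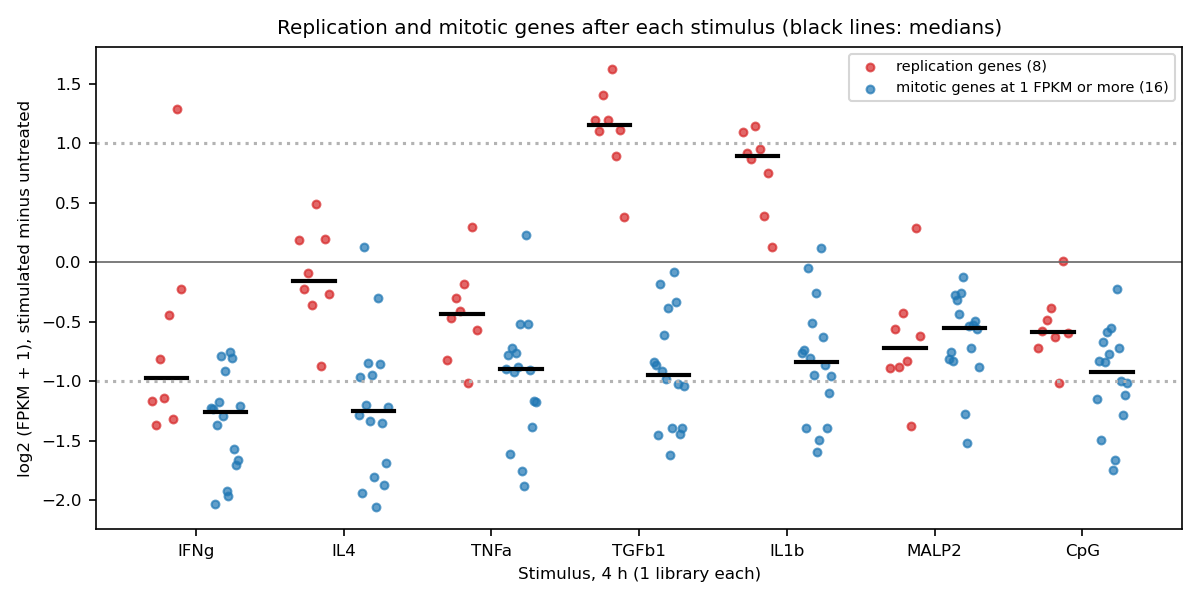
Log2 change of (FPKM + 1) against untreated for the 8 replication genes (red) and the 16 mitotic genes that reached 1 FPKM (blue) after each stimulus, with 1 library per stimulus; black lines are medians and dotted lines mark 2-fold. The red points lie wholly above 0 after TGFb1 and IL1b, where the medians are 1.15 and 0.89, while the blue medians are below 0 after all 7 stimuli.

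Counted by size, 20 of 34 measured members were at least 2-fold lower after IFNg, where 12.7% of all genes compared were. After IL4 it was 11 of 34 against 11.9% of all genes, after CpG 12 of 34 against 11.2%, after TNFa 9 of 34 against 10.4%, after TGFb1 7 of 35 against 9.15%, after IL1b 5 of 34 against 8.57%, and after MALP2 5 of 34 against 11.7%. The share after MALP2 was thus near the background. Members at least 2-fold higher were found after TGFb1 (7 of 35, against 7.15% of all genes), IL1b (3 of 34, against 7.29%) and IFNg (1 of 34, against 10.7%), and none after IL4, TNFa, MALP2 and CpG, where 9.86%, 8.92%, 9.53% and 9.43% of all genes were. Members that were 2-fold lower and also called in the authors' deposited table numbered 15 after IFNg (8.37% of all genes), 11 after IL4 (8.14%), 7 after TNFa (7.18%), 6 after TGFb1 (6.58%), 4 after IL1b (6.59%), 3 after MALP2 (8%) and 7 after CpG (7.75%). Members 2-fold higher and called in the authors' deposited table numbered 4 after TGFb1 (5.09% of all genes), 1 after IL1b (5.33%) and 0 after IFNg (7.56%), IL4 (6.79%), TNFa (6.4%), MALP2 (6.34%) and CpG (6.6%). By bounds that did not overlap, 11 members were lower after IFNg (8.2% of all genes), 7 after IL4 (8.24%), 6 after TNFa (7.91%), 5 after TGFb1 (7.99%), 5 after IL1b (8.08%), 4 after MALP2 (8.29%) and 7 after CpG (8.1%). By the same bounds 6 were higher after TGFb1 (6.2% of all genes), 2 after IL1b (5.83%) and 0 after IFNg (6.58%), IL4 (6.5%), TNFa (6.36%), MALP2 (5.67%) and CpG (6.14%). The largest shares of members lower were thus found after IFNg by each of the 3 rules, in the library of least estimated relative depth. The part of depth in these counts was not tested. Of the 35 members measured after any stimulus, 20 were both past 2-fold and called in the authors' deposited table after 1 stimulus or more, 12 of them mitotic, where 30% of all genes measured were. Bub1, Kif11, Cenpe and Cenpf stayed under 1 FPKM in all 8 libraries and were not counted.

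**Figure D2:**
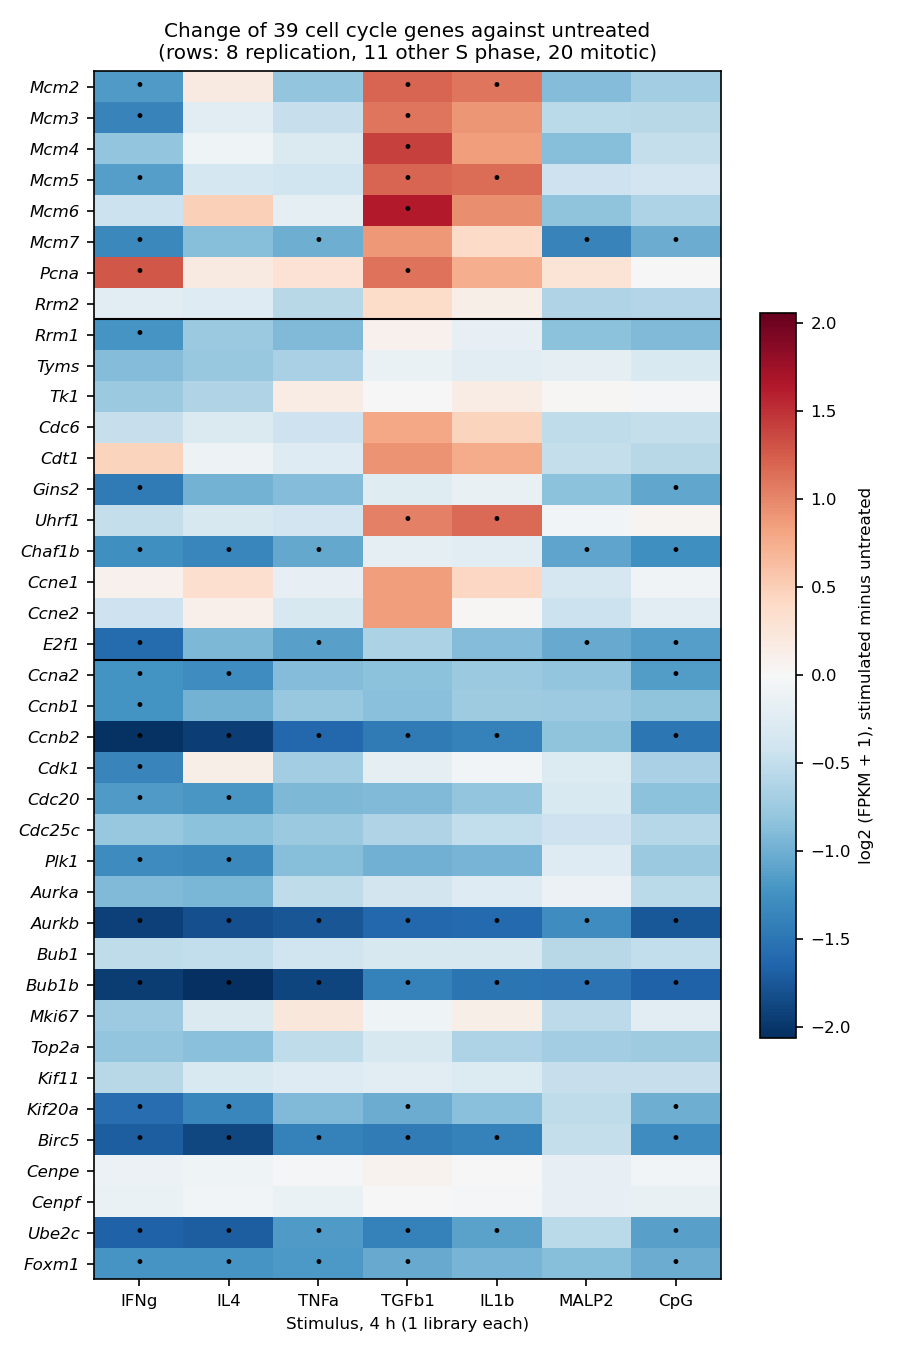
Log2 change of (FPKM + 1) against untreated for all 39 genes (rows) after each of the 7 stimuli (columns, 1 library each); red is higher, blue is lower, dots mark changes of at least 2-fold in genes at 1 FPKM or more, and lines separate replication, other S phase and mitotic genes. The rows Mcm2 to Mcm7 are red after TGFb1 and IL1b, and the rows Aurkb and Bub1b have a dot in all 7 columns.

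The MCM genes encode the 6 subunits of the replicative helicase. Mcm6 (ENSMUSG00000026355, mm9 chromosome 1, 130228168 to 130256233) was at 26.9 FPKM untreated (10.9 to 42.8), 85.0 after TGFb1 (43.0 to 127), 53.1 after IL1b, 38.2 after IL4, 23.6 after TNFa, 19.4 after IFNg, 17.0 after CpG and 14.7 after MALP2. The TGFb1 library was thus the highest and the MALP2 library the lowest, and the bounds of TGFb1 and untreated did not overlap (log2 change 1.63, q-value 0.0123 in the authors' deposited table). Mcm4 was at 7.50 FPKM untreated (4.76 to 10.2), 21.5 after TGFb1 (15.2 to 27.8) and 14.5 after IL1b (10.2 to 18.9), and at 7.00 after IL4, 5.88 after TNFa, 5.04 after CpG, 3.80 after IFNg and 3.59 after MALP2. The authors' deposited table calls it after TGFb1 (q-value 3.28e-05) and after IL1b (q-value 0.0216), in each case with bounds apart from the untreated bounds of the same table (for IL1b narrowly, 9.88 against 9.64 FPKM there, while on the joined scale printed here they overlap).

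Mcm2, Mcm3 and Mcm5 were past 2-fold in opposite directions after different stimuli. Mcm2 was at 8.41 FPKM untreated, 20.6 after TGFb1, 19.2 after IL1b, 9.72 after IL4, 4.68 after CpG, 4.31 after TNFa, 4.06 after MALP2 and 3.12 after IFNg, with log2 changes from 1.20 to -1.17. Mcm3 was at 22.3 FPKM untreated, 49.0 after TGFb1, 43.0 after IL1b and 7.95 after IFNg, with the other 4 between 14.6 and 19.0. Mcm5 was at 11.6 FPKM untreated, 27.8 after TGFb1, 26.9 after IL1b and 4.65 after IFNg, with the other 4 between 8.33 and 8.78. Of these differences the authors' deposited table calls the higher Mcm5 after TGFb1 (q-value 0.0441) and no other. The bounds of the 3 genes overlapped those of the untreated library after every stimulus.

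Mcm7 (mm9 chromosome 5, 138602299 to 138628679) was the replication gene called most often in the authors' deposited table, after 6 of 7 stimuli (all but IL1b). It was at 7.91 FPKM untreated (5.16 to 10.7), 15.6 after TGFb1 (11.2 to 20.0) and 10.7 after IL1b, and at 3.85 after IL4, 3.40 after TNFa, 3.37 after CpG, 2.50 after IFNg (1.39 to 3.62) and 2.39 after MALP2. Its log2 change ran from 0.89 after TGFb1 (q-value 0.0122 in the authors' deposited table) to -1.38 after MALP2 (q-value 0.000765 in the authors' deposited table). The locus deposited for Mcm7 also holds Ap4m1, Cops6 and Taf6, each above 1 FPKM untreated, so its reads may not be wholly separate from theirs. Tk1, Gins2, Ccne2, Ccna2, Cdc20 and Kif20a likewise share a deposited locus with other genes at 1 FPKM or more. Summed over Mcm2 to Mcm7, the level was 84.5 FPKM untreated, 219 after TGFb1, 167 after IL1b, 86.5 after IL4, 61.4 after TNFa, 53.2 after CpG, 47.8 after MALP2 and 41.4 after IFNg. The sum after TGFb1 was 2.60 times and after IL1b 1.98 times that of the untreated library, and the sum after IFNg 0.490 times.

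Pcna, the sliding clamp of the DNA polymerases and also a repair factor, was higher with the MCM genes after TGFb1 and IL1b but did not follow them after IFNg. It had the highest level of the 39 in the untreated library at 91.9 FPKM (43.2 to 141), and was at 226 after IFNg (96.0 to 355), 200 after TGFb1 (105 to 295), 155 after IL1b, 113 after TNFa, 112 after MALP2, 105 after IL4 and 92.7 after CpG. It was the only member of the 39 above untreated in all 7 stimulated libraries, after CpG barely so (92.7 against 91.9 FPKM). The share of all genes above untreated in all 7 was not computed. The highest value of Pcna came from the IFNg library, in which Mcm2 to Mcm7 were each below untreated. None of these differences is called in the authors' deposited table, and the bounds overlapped. Because of its level, Pcna set the sum over the 8 replication genes: after IFNg this sum was 1.50 times that of the untreated library, although 7 of the 8 genes were lower. Rrm2, the S phase subunit of ribonucleotide reductase, was at 4.64 FPKM untreated, 6.34 after TGFb1 and 2.65 after MALP2, the highest and the lowest stimulated library, and its bounds overlapped those of the untreated library in every case.

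**Figure D3:**
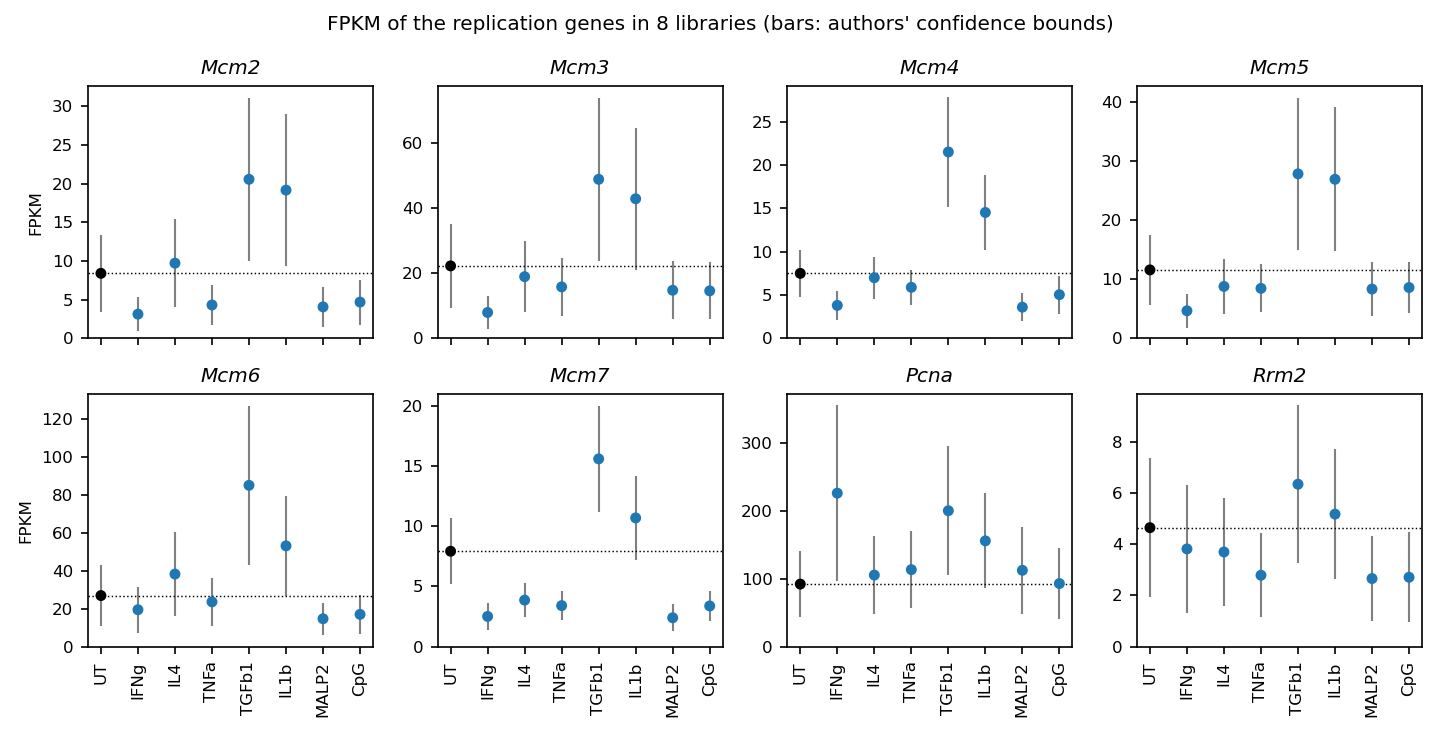
FPKM of the 8 replication genes in the untreated library (UT, black) and the 7 stimulated libraries (blue), on the scale of the IL4 table; bars are the authors' confidence bounds and the dotted line is the untreated level. TGFb1 is the highest library for all of them except Pcna, where IFNg is highest at 226 FPKM.

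Licensing and entry into S phase precede synthesis. Cdc6 and Cdt1 load the helicase: Cdc6 was at 1.12 FPKM untreated, 2.69 after TGFb1 (q-value 0.00726 in the authors' deposited table), 1.91 after IL1b and 0.450 to 0.730 after the other 5. Cdt1 was at 15.7 FPKM untreated, 30.6 after TGFb1, 27.2 after IL1b, 22.1 after IFNg and 10.2 to 14.6 after the other 4. Both genes thus had their 2 highest values after TGFb1 and IL1b, short of 2-fold on the FPKM + 1 scale. Cyclin E activates Cdk2 at the start of S phase. Ccne1 was at 2.49 FPKM untreated, 5.31 after TGFb1 and 1.72 to 3.68 after the other 6. Ccne2 was at 0.776 FPKM untreated, 2.24 after TGFb1 (q-value 0.0245 in the authors' deposited table) and 0.289 to 0.908 after the other 6, so it reached 1 FPKM in the TGFb1 library alone and is counted there only.

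Uhrf1, which recruits the maintenance methyltransferase to newly copied DNA, was the only one of the 11 other S phase genes at least 2-fold higher after any stimulus on the FPKM + 1 scale. With a pseudocount of 0.1 FPKM, Cdc6, Ccne1 and Ccne2 were also past 2-fold after TGFb1, with log2 changes of 1.20, 1.06 and 1.41. Uhrf1 was at 4.70 FPKM untreated (3.17 to 6.23), 11.8 after IL1b (8.28 to 15.3), 10.7 after TGFb1 (7.87 to 13.5), 4.96 after CpG, 4.48 after MALP2, 3.55 after IL4, 3.32 after TNFa and 3.04 after IFNg. The IL1b and TGFb1 libraries stood apart from the untreated bounds, with log2 changes of 1.16 and 1.04 and q-values of 0.000322 and 0.000843 in the authors' deposited table.

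Other S phase genes were lower after most stimuli and near untreated after TGFb1 and IL1b. Chaf1b, a subunit of the histone chaperone CAF-1, was at 7.38 FPKM untreated, 6.38 after TGFb1 and 6.16 after IL1b, but 2.30 to 3.02 after the other 5, each at least 2-fold lower. Gins2, a subunit of the GINS helicase cofactor, was at 12.0 FPKM untreated, 10.6 after IL1b, 9.94 after TGFb1 and 3.68 to 6.18 after the other 5, in a locus that also holds Gse1. Rrm1, the large subunit of ribonucleotide reductase, was at 17.1 FPKM untreated, 18.2 after TGFb1, 15.1 after IL1b and 6.75 to 9.73 after the other 5. These 3 genes share the order in which TGFb1 and IL1b are the 2 highest stimulated libraries. The thymidylate genes were flatter. Tyms, thymidylate synthase, was at 5.10 FPKM untreated and 2.23 to 4.56 after stimulation. Tk1, thymidine kinase, was at 7.96 FPKM untreated, 4.24 after IFNg, 4.84 after IL4 and 7.83 to 8.98 after the other 5. Among these genes the authors' deposited table calls only Chaf1b, after IFNg and IL4, and Gins2, after IFNg, IL4 and CpG. For Chaf1b, Rrm1, Tyms and Tk1 the bounds overlapped those of the untreated library after every stimulus.

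E2f1 (ENSMUSG00000027490, mm9 chromosome 2, 154385143 to 154395628), an activator of S phase genes, was below untreated in every stimulated library, unlike the MCM genes after TGFb1 and IL1b. It was at 22.4 FPKM untreated (14.7 to 30.1), 13.8 after TGFb1, 11.6 after IL1b, 11.3 after IL4, 10.3 after MALP2, 9.73 after TNFa, 9.68 after CpG and 6.71 after IFNg (3.26 to 10.2). Of the 7 stimulated libraries 4 were at least 2-fold lower, and the authors' deposited table calls 6 of the 7 (all but TGFb1). After IL1b the authors' deposited table calls Mcm4 and Uhrf1 higher and E2f1 lower (log2 change -0.89, q-value 0.0147).

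The mitotic cyclins and their kinase drive entry into mitosis. Ccnb2, cyclin B2, was at 16.4 FPKM untreated (6.67 to 26.1), 3.17 after IFNg, 3.54 after IL4, 4.65 after TNFa, 5.13 after CpG, 5.34 after TGFb1, 5.60 after IL1b and 8.73 after MALP2, with log2 changes from -2.03 to -0.83. Ccnb1, cyclin B1, was at 2.90 FPKM untreated (1.88 to 3.92) and 0.603 (IFNg) to 1.32 (IL1b) after stimulation. The authors' deposited table calls it after all 7 stimuli, with bounds apart each time, while 6 of the 7 changes were short of 2-fold on the FPKM + 1 scale. Ccna2, cyclin A2, was at 6.67 FPKM untreated and 2.15 (IL4) to 3.52 (IL1b) after stimulation. Cdk1, the kinase they activate, differed from its cyclins. It was at 27.3 FPKM untreated (16.9 to 37.7), 29.9 after IL4, 26.3 after IL1b, 23.9 after TGFb1, 22.3 after MALP2, 16.7 after CpG, 16.1 after TNFa and 9.91 after IFNg (5.63 to 14.2). IFNg was the only one of the 7 whose bounds did not overlap those of the untreated library (log2 change -1.37, q-value 0.00688 in the authors' deposited table). After IL4 it stood at its untreated level while Ccnb2 was at 3.54 FPKM.

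On the FPKM + 1 scale, Bub1b and Aurkb were the mitotic genes at least 2-fold lower after every stimulus. By the plain ratio of FPKM the low genes Ccnb1 (0.208 to 0.456 of untreated) and Foxm1 (0.314 to 0.451) were so too. Bub1b (ENSMUSG00000040084, mm9 chromosome 2, 118423947 to 118467328), a kinase of the spindle checkpoint, was at 14.1 FPKM untreated (7.71 to 20.4), 2.61 after IL4, 2.79 after IFNg, 3.05 after TNFa, 3.73 after CpG, 4.23 after MALP2, 4.32 after IL1b and 4.74 after TGFb1 (2.63 to 6.84). All 7 are called in the authors' deposited table, with bounds apart from those of the untreated library. Aurkb (mm9 chromosome 11, 68859149 to 68865166), the kinase of the chromosomal passenger complex, was at 10.5 FPKM untreated (5.28 to 15.8), 1.98 after IFNg, 2.31 after IL4, 2.39 after TNFa, 2.41 after CpG, 2.74 after TGFb1, 2.80 after IL1b and 3.72 after MALP2. The authors' deposited table calls it after 6 stimuli, and after MALP2 its bounds (1.19 to 6.26) met those of the untreated library. Birc5, survivin, a partner of Aurkb in that complex, was at 17.9 FPKM untreated, 4.15 after IL4, 4.74 after IFNg, 5.93 after TGFb1, 6.15 after IL1b, 6.19 after TNFa, 6.71 after CpG and 12.4 after MALP2, so that 6 of the 7 libraries were at least 2-fold lower and MALP2 was not.

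Foxm1, the transcription factor of the mitotic programme, was at 5.25 FPKM untreated and 1.65 (IFNg) to 2.37 (MALP2) after stimulation, and the authors' deposited table calls it after 6 stimuli, all but MALP2. The ubiquitin pathway genes Ube2c and Cdc20, which carry out the degradation of cyclin B and securin, were at 12.4 and 8.81 FPKM untreated. Ube2c was at 3.14 after both IFNg and IL4, 4.08 after TGFb1, 4.94 to 5.23 after TNFa, CpG and IL1b, and 8.04 after MALP2. Cdc20 was at 3.27 to 4.60 FPKM after 6 stimuli and 6.88 after MALP2. Among the kinases, Plk1, polo-like kinase 1, was at 5.95 FPKM untreated, 1.76 to 3.05 after 6 stimuli and 4.80 after MALP2, and Aurka, the centrosomal aurora kinase, at 6.99 FPKM untreated, 3.15 to 5.66 after 6 and 6.34 after MALP2. Kif20a, a kinesin of the central spindle, was at 8.03 FPKM untreated, 1.97 to 3.94 after 6 and 5.25 after MALP2. MALP2 was the highest of the 7 stimulated libraries for Ccnb2, Cdc20, Plk1, Aurka, Aurkb, Kif20a, Birc5, Ube2c and Foxm1. It was also the highest for the low Cdc25c, a phosphatase that activates Cdk1 (1.48 FPKM untreated, 0.380 to 0.823 after stimulation). Among the remaining mitotic genes the highest was IL1b for Ccna2 and Ccnb1, IL4 for Cdk1, and TNFa for Mki67. For Bub1, Bub1b, Top2a, Kif11, Cenpe and Cenpf it was TGFb1. The lead was small for Foxm1, at 2.37 FPKM (1.17 to 3.57) against 2.21 after IL1b (1.33 to 3.10). The share of all genes highest after MALP2 was not computed.

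**Figure D4:**
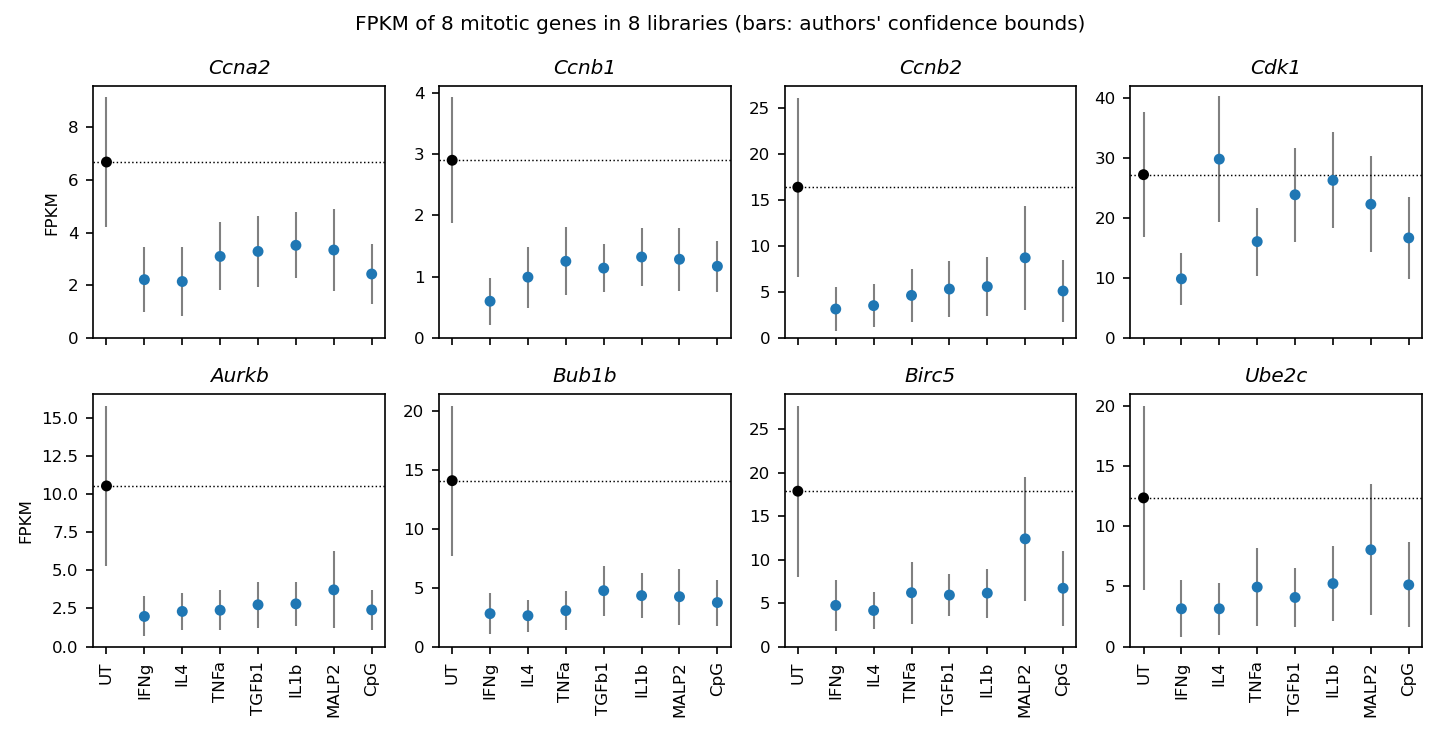
FPKM of 8 mitotic genes in the untreated library (UT, black) and the 7 stimulated libraries (blue), on the scale of the IL4 table; bars are the authors' confidence bounds and the dotted line is the untreated level. Every stimulated point is below the line except Cdk1 after IL4 (29.9 against 27.3 FPKM).

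The remaining mitotic genes were under 1 FPKM in every library or short of 2-fold after every stimulus on the FPKM + 1 scale. Mki67, the Ki-67 antigen gene, was at 2.17 FPKM untreated (0.885 to 3.46), 2.73 after TNFa, 2.44 after IL1b, 1.99 after TGFb1 and 0.844 after IFNg, with bounds that overlapped those of the untreated library in all 7 comparisons. Top2a, topoisomerase II alpha, was at 10.2 FPKM untreated and 5.22 to 7.93 after stimulation, below untreated in all 7 but never 2-fold. The centromere genes Cenpe and Cenpf stood at 0.209 and 0.157 FPKM untreated, and Bub1 and the spindle motor gene Kif11 at 0.992 and 0.902 FPKM. The longest annotated transcripts of Cenpf, Mki67 and Cenpe have 11130, 10061 and 7910 bases, the 3 longest of the 39. Over the 20 mitotic genes the untreated FPKM and this length had a Spearman's rho of -0.42, against 0.007 over the 19 replication and S phase genes and -0.13 over 11925 genes at 1 FPKM or more. These correlations are across genes of 1 library, which are not independent replicates, and describe it only.

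All 7 comparisons use the same untreated library, so a low or high value in it enters each of them. Of the 35 members measured, 18 were below untreated in all 7 stimulated libraries, 14 of them among the 16 mitotic genes measured, where 29.1% of all genes were. Each stimulated library was therefore also set against the median of the other 6 stimulated ones. Against that median the mitotic median was -0.40 after IFNg, -0.39 after IL4, 0.03 after TNFa, 0.11 after TGFb1, 0.16 after IL1b, 0.42 after MALP2 and -0.02 after CpG, and 1 mitotic gene in 1 library, Cdk1 after IFNg, was at least 2-fold lower, where 3.57% of all genes were. The mitotic genes thus set the untreated library apart from the 7 stimulated ones more than they set those 7 apart from each other. The replication genes differed among the stimulated libraries themselves. Mcm2 to Mcm7 were all at least 2-fold higher after TGFb1 than in the median of the other 6, with a median of 1.86, and all at least 2-fold higher after IL1b, with a median of 1.42, where 3.58% and 1.23% of all genes were that much higher. Cdc6, Cdt1, Uhrf1 and Ccne2 after TGFb1 and Uhrf1 after IL1b were also at least 2-fold higher. Over all members, 10 were at least 2-fold higher after TGFb1, 7 after IL1b and 0 after IFNg (7.75% of all genes), IL4 (4.97%), TNFa (1.62%), MALP2 (3.25%) and CpG (3.68%). Mcm3 and Cdk1 were at least 2-fold lower after IFNg and Mcm6 after MALP2 (1.52% of all genes), and 0 members were after IL4 (5.88%), TNFa (0.84%), TGFb1 (4.02%), IL1b (1.15%) and CpG (0.839%).

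Markers of other cell types were measured beside these groups. The 10 listed stromal genes summed to 102 FPKM untreated, 217 after IFNg and 104 to 113 after the other 6. All of them but Dcn and Pdgfrb were highest in the IFNg library. Dcn was highest after TNFa (1.68 FPKM, 1.30 after IFNg) and Pdgfrb after CpG (3.64 FPKM, 1.94 after IFNg). Lum and Pdgfra were under 1 FPKM everywhere. Genes of granulocytes and their precursors reached 1 FPKM in 11 of 12 cases untreated and in 5 (IL4) to 9 (IFNg) after stimulation. This list summed to 279 FPKM untreated and 163 (IL4) to 431 (IFNg) after stimulation. Its members differed: Mpo was at 1.50 FPKM untreated and 0.467 to 1.14 after stimulation and the progenitor receptor gene Kit at 2.15 and 0.390 to 1.56 FPKM, while S100a8 was at 124 FPKM untreated and 74.7 (IL4) to 205 (IFNg), and Cd34 at 1.59 and 1.17 to 2.53 FPKM. Of B cell genes, Ighm was at 129 FPKM untreated and 15.7 to 30.9 after stimulation and Cd79b at 8.14 and 1.65 to 2.96 FPKM, while Cd79a, Ms4a1, Pax5, Vpreb1 and Igll1 were under 1 FPKM in every library. Of 8 erythroid genes found, 7 were under 1 FPKM everywhere. The part of these cells in the lower mitotic genes was not tested.

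Cell cycle genes outside the 39 were read from lists drawn up beside them. Of 42 other mitotic genes found in the tables, 35 to 37 reached 1 FPKM, with medians of -1.20 to -0.64. At least 2-fold lower were 22 after IFNg (12.7% of all genes), 20 after IL4 (11.9%), 9 after TGFb1 (9.15%), 9 after IL1b (8.57%), 9 after CpG (11.2%), 8 after TNFa (10.4%) and 7 after MALP2 (11.7%). The lowest by median change were Cdc25b, a phosphatase that activates cyclin-dependent kinases (32.2 FPKM untreated, log2 changes of -3.48 to -2.03), the central spindle kinesin gene Kif23 (7.07 FPKM, -1.93 to -1.20) and Cdca3 (20.4 FPKM, -2.06 to -1.34). At the other end stood Cep55 (1.19 FPKM untreated, -0.51 to -0.25) and the separase gene Espl1 (2.03 FPKM), 1.10 higher on the log2 scale after TGFb1. Espl1 was the only one of this list at least 2-fold higher after any stimulus. That is 1 of 37 measured after TGFb1, a smaller share than the 7.15% of all genes. After the other stimuli, where none were, 7.29% (IL1b) to 10.7% (IFNg) of all genes were.

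Of 30 other replication genes, 23 to 26 reached 1 FPKM, and their median was 0.26 after TGFb1, -0.06 after IL1b, -0.45 after IL4 and -0.70 to -0.64 after the other 4. 2 were at least 2-fold higher after TGFb1 (7.15% of all genes, a share near that of the list), Orc6 of the origin recognition complex (log2 change 1.14) and the uracil glycosylase gene Ung (1.35, named after its value was seen), and none after the other 6. 7 were at least 2-fold lower after IFNg (12.7% of all genes), 5 after MALP2 (11.7%) and 5 after CpG (11.2%). After TNFa (10.4%) and IL4 (11.9%) 2 were, no larger a share than of all genes, and none were after TGFb1 or IL1b. The lowest by median change were the maintenance methyltransferase Dnmt1 (38.2 FPKM untreated, -1.88 after MALP2 and 0.10 after TGFb1), the Cdc7 activator Dbf4 (5.54 FPKM, -1.58 to -0.45) and the polymerase alpha subunit Pola2 (11.8 FPKM, -1.10 to -0.05), and the highest beside Orc6 was Rpa2 (9.82 FPKM, -0.34 to 0.63). This list's median after TGFb1 was thus smaller than that of the 8 replication genes.

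Of 18 genes of pocket proteins, E2F factors and DREAM or MuvB subunits, 17 reached 1 FPKM, and their medians ran from -0.65 (IFNg) to 0.10 (TGFb1). Of these 17, 7 were at least 2-fold lower after MALP2 (11.7% of all genes), 5 after CpG (11.2%), 4 after IFNg (12.7%) and IL4 (11.9%), 3 after TNFa (10.4%) and IL1b (8.57%), and 2 after TGFb1 (9.15%). There were 2 at least 2-fold higher after IFNg (10.7% of all genes) and 2 after IL4 (9.86%), shares near those of all genes. The activator E2f2 was at 14.1 FPKM untreated, 26.4 after TGFb1, 8.88 after IL1b, 7.82 after IFNg and 2.47 to 4.67 after the other 4, so that TGFb1 was the only library above untreated. Rbl2, the pocket protein p130 of resting cells, had log2 changes of -2.49 to -0.77 and Tfdp2, an E2F partner, of -1.70 to -1.06, while E2f4, the main E2F of the repressing complexes, was 0.50 to 1.09 higher and E2f5 0.01 to 0.98 higher. Of these E2f4 passed 2-fold after IL4 alone.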

How the data were processed

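Poly(A) RNA-seq of 8 libraries was used, 1 per group by its labels. Per the submitters' processing notes, mm9, TopHat 1.3.1, Cufflinks 1.2.1 and Cuffdiff 1.2.1 were used. The options and the strandedness were not given in the sources used here. Per the file headers, the authors deposited for each stimulus FPKM with lower and upper bounds, whose level is not stated, and a second table with p- and q-values and a call of significance. Each table has 36806 genes, of which 336 to 388 without status OK were left out. Symbols were found for 31840 identifiers in GENCODE release M21. Gene loci are given in mm9, counted from 1, while the promoter coordinates are in GRCm38.p6. With 1 library a group there was no test and no p-value; a gene was counted at 1 FPKM or more in either library and a 2-fold change with a pseudocount of 1 FPKM. Depth is unknown except for a rough estimate relative to the untreated library.

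The 39 genes and all lists were chosen with earlier results of these data known. The plan was to describe one by one the members past 2-fold with the authors' call. Further members are described as well, among them Mcm2, Mcm3, Pcna and Top2a, which had no such change. From each other list the 3 lowest and 2 highest by median change at 1 FPKM or more untreated were named. Alternatives were another pseudocount and floor, centring, the authors' call or bounds, summed FPKM, other member sets, and the other 6 stimulated libraries as reference. Only the 2-fold counting rule was tried on simulated FPKM, with planted changes larger than 2-fold in genes at 5 FPKM or more. Group medians, joined levels and promoter matches were not tried in this way. Python 3.11.15, pandas 2.3.3, numpy 2.4.6, scipy 1.17.1 and matplotlib 3.10.9 were used.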

Additional observations from a re-analysis of the deposited data

Results flagged for a closer look

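The replication genes stood on opposite sides of untreated after different stimuli. Their median log2 change was 1.15 after TGFb1 and 0.89 after IL1b, with 8 of 8 genes higher in each, against -0.98 after IFNg, -0.72 after MALP2 and -0.59 after CpG, with 7 of 8 lower in each. Mcm2 was at 1.20 after TGFb1 and 1.10 after IL1b against -1.17 after IFNg, Mcm3 at 1.10 after TGFb1 against -1.37 after IFNg, and Mcm5 at 1.20 after TGFb1 and 1.15 after IL1b against -1.14 after IFNg. With 1 library per stimulus the difference was not tested.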

How the results depend on the processing

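Of 231 alternatives computed for counts and medians, 29 moved by more than 1.5 times and 4 turned a median that was past 1.5-fold; counting small medians too, 10 of the 133 alternatives for medians changed sign. Centring, a floor of 5 FPKM or none, and other member sets moved none. With the authors' call added, the members higher were 0 after IFNg, 4 after TGFb1 and 1 after IL1b, and the members lower were 3 after MALP2 and 7 after CpG. With bounds apart as the rule, 11 were lower after IFNg and 7 after IL4 and CpG, and 0 were higher after IFNg. A pseudocount of 0.1 FPKM gave 15 lower after TNFa, 11 after TGFb1, 9 after IL1b and 10 after MALP2. The share of all genes lower at that pseudocount was not computed, so these counts have no background beside them. From summed FPKM, the replication genes after IL4 were at 0.11 instead of -0.15, and those after IFNg at 0.58 on the log2 scale, since Pcna (226 against 91.9 FPKM) makes up most of the sum. Against the other 6 stimulated libraries the members lower were 2 after IFNg, 1 after MALP2 and 0 after IL4, TNFa, TGFb1, IL1b and CpG, and the members higher 0 after IFNg and 7 after IL1b. On that reference the mitotic median was -0.40 after IFNg, -0.39 after IL4 and -0.017 after CpG, and it turned from lower to higher at 0.42 after MALP2, 0.031 after TNFa, 0.11 after TGFb1 and 0.16 after IL1b. The replication median after IL4 turned to 0.22. The mitotic minus the replication median turned from below to above 0 after IFNg (0.24), TNFa (0.20) and CpG (0.31), and was 0.83 after MALP2. No paired analysis was possible because each group held 1 library. Without read counts, the precision of low genes such as Cdc6, Ccne2 and Cdc25c is known only through the authors' bounds.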
